A study of Homo sapiens with 4 samples.

Results

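The genes described here are 36 stress-response genes, 24 immediate early genes and 12 heat shock genes, among 18417 genes represented on the arrays. They were chosen by name, with earlier results of these data known. The rows whose annotated symbol was one of the 36 were taken, with the probe set of highest mean where a gene had several. A single-gene row existed for 33 of them, 23 immediate early and 10 heat shock genes. No single-gene row named EGR2, and the 5 probe sets for HSPA1A and HSPA1B carry both symbols, so these paralogues are described as a pair and were not tested. NR4A3, with a mean under the signal minimum of 5.64 on the log2 scale, was not tested either, which left 22 immediate early and 10 heat shock genes among the 14547 genes tested.

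RNA came from SNU-16, a human gastric carcinoma cell line, after growth in BALB/c nude mice, which lack functional T cells. The ovary lines of round 2 came from the metastasis that formed when ovary-derived cells were put back into the stomach wall, and those of round 1 from the ovarian metastasis of the first implantation. The stomach lines of round 2 and round 1 came from the tumour in the stomach wall after the second and the first implantation. Round 1 tumours were taken apart and kept in culture for 7 days before they were implanted again, and RNA was isolated from cell pellets. In such bulk RNA, fewer cells of a type and less RNA per cell cannot be told apart. There is 1 array for each of the 4 lines, so each site and each round has n = 2, and every line descends from 1 cell line. The round 2 line of a site descends from its round 1 line, so p-values measure only the spread between these arrays, part of which may be technical. The labels conflict in round 2: under the stomach title the cultured site is given as ovary, and under the ovary title the last sentence puts the tumour in the stomach. The titles were followed, and the values with the round 2 arrays exchanged are given beside the results that rest on them.

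Array medians lay between 6.80 and 6.84. All 9 markers of the line, among them EPCAM, CDH1 and FGFR2, had means between 10.8 and 13.3. Of other cell types, 7 of 11 leukocyte, 6 of 9 endothelial, 6 of 11 fibroblast, 5 of 11 ovarian and 5 of 6 mesothelial markers had a mean above the signal minimum, the highest being CD68 at 9.75. The leukocyte marker PTPRC, the endothelial PECAM1, the fibroblast DCN and PDGFRA, and the ovarian CYP11A1, CYP17A1, CYP19A1 and FSHR were under it. The endothelial junction gene ESAM, singled out after its values were seen, had 7.39 and 6.56 in ovary lines of round 2 and round 1, and 7.67 and 6.56 in stomach lines. The summed linear signal of the 11 leukocyte genes was 1527 and 1420 units in ovary lines of round 2 and round 1, and 1663 and 1713 in stomach lines. That of the 11 fibroblast genes was 685.2 and 712.5 in ovary lines, and 680.9 and 745.6 in stomach lines. Round 2 over round 1, the leukocyte sum was 1.08 in ovary and 0.97 in stomach lines, and the fibroblast sum 0.96 and 0.91. The ovarian list summed to 1006 and 1224 in ovary lines and 979.1 and 1229 in stomach lines, and the mesothelial list to 570.1 and 618.3, and 590.4 and 519.6. Host cells of these types would be mouse cells, whereas the rows are named by human genes. How far these probe sets read mouse transcripts was not tested, so the sums are not a measure of host cell content. The part of these lists in the results was not tested either.

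Immediate early genes are transcribed within minutes of a growth factor or stress signal, without new protein synthesis. ERK and p38 kinases act through the serum response factor, bound with ternary complex factors at CArG boxes, and through CREB at cAMP response elements. Their products are mostly transcription factors, with a few feedback inhibitors, and the transcripts are short-lived. Heat shock genes are driven by HSF1, which binds heat shock elements when unfolded protein draws chaperones away from it, and several of them also have a high constitutive level. Dissociation and handling of cells are known to induce both groups.

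Promoter windows are shown for the tested members whose window held a match to one of these elements. The windows run from 250 bases before to 50 bases from the transcription start, in RefSeq on GRCh38.p14. 26 of the 32 tested genes have at least 1 such window. The cAMP response element was searched as TGACGTCA, which reads the same on both strands, and the heat shock element as GAA, TTC and GAA with any 2 bases between them, on both strands. The CArG box was searched by its consensus, and the motifs do not overlap each other except where 2 heat shock elements share bases. Capitals mark the matches.

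The DUSP1 window (chr5:172771146-172771445, minus strand) and the JUND window (chr19:18281573-18281872, minus strand) each hold 1 cAMP response element, at positions -125 to -118 and -200 to -193 from the start. The EGR1 window (chr5:138465229-138465528, plus strand) holds 2 CArG boxes, at -105 to -96 and -83 to -74.
DUSP1: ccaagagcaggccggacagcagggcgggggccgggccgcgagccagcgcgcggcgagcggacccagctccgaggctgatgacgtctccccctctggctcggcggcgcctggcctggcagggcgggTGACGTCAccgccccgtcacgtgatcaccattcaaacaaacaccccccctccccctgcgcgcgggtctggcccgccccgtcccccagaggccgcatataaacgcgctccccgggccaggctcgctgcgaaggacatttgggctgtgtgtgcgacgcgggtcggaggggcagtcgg
JUND: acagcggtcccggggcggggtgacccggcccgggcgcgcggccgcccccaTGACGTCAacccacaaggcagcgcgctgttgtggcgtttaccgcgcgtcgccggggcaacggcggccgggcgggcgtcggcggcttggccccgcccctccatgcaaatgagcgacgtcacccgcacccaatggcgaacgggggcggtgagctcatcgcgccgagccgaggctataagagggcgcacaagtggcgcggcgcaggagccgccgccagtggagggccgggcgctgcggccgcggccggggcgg
EGR1: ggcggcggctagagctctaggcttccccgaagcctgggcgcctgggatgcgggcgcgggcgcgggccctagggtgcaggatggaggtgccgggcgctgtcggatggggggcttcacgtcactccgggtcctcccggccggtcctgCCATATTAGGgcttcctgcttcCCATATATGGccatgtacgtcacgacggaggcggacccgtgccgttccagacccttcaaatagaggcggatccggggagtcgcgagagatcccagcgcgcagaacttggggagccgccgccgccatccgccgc

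Heat shock elements were found in the windows of DNAJA1 (chr9:33025023-33025322, plus strand), HSPD1 (chr2:197499791-197500090, minus strand), HSP90AA1 (chr14:102086995-102087294, minus strand) and HSPA8 (chr11:123062087-123062386, minus strand). The match of DNAJA1 lies just after the start, at positions 4 to 16, and that of HSP90AA1 at -88 to -76. HSPD1 has 2 that overlap, between -245 and -228, and HSPA8 has 2 that are apart, at -230 to -218 and -55 to -43.
DNAJA1: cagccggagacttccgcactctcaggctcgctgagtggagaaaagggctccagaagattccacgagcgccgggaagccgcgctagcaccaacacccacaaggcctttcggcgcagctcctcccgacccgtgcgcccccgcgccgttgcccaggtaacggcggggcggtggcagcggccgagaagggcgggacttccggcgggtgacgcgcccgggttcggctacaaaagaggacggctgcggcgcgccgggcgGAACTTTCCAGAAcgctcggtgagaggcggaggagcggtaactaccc
HSPD1: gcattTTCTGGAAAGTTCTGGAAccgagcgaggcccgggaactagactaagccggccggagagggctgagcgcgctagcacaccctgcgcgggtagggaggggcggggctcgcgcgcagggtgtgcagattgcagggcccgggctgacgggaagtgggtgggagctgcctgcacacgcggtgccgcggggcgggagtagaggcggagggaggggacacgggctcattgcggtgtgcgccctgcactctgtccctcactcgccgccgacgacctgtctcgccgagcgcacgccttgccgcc
HSP90AA1: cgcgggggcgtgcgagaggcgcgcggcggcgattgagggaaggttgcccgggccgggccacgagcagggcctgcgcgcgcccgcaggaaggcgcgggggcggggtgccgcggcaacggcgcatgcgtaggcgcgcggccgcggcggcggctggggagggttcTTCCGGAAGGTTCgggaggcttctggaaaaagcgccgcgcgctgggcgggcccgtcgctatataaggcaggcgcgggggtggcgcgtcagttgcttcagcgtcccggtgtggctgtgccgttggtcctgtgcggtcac
HSPA8: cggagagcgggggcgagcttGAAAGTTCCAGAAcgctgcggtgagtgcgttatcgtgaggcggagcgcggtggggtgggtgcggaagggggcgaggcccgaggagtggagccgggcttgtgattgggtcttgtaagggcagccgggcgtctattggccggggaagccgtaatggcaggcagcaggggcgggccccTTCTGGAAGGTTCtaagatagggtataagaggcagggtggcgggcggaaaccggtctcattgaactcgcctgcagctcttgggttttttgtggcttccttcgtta

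Of all 35116 windows, 1.29% held a CArG box, 1.85% a cAMP response element and 0.49% a heat shock element of this form. A match is a description of the letters in the window, and a window without one may hold the element further away.

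The comparison of rounds set lines of the second implantation against those of the first. In ovary lines all 22 tested immediate early genes were higher in round 2 than in round 1, by 0.042 to 1.51 on the log2 scale, with a median of 0.54. Over all genes tested, 47.0% were higher and the median was -0.0021. In stomach lines 13 of the 22 were higher in round 2, with a median of 0.073 against -0.017 over all genes, of which 44.1% were higher. At least 1.5-fold higher in round 2 were 10 of the 22 in ovary lines, beside 2.41% of all genes, and 1 of the 22 in stomach lines, beside 1.23%. At least 1.5-fold lower were 0 of the 22 in ovary lines, beside 0.983%, and 1 in stomach lines, beside 0.935%. Each of these differences is between 1 array and 1 other array and has no test.

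The AP-1 subunits of the Jun family, which pair with Fos proteins on DNA, showed this most clearly for JUN. JUN stood at 9.98 in the round 2 ovary line and 8.58 in the round 1 ovary line, and at 9.18 and 9.07 in the stomach lines of round 2 and round 1. The round 2 ovary array was thus the highest and the round 1 ovary array the lowest, with the stomach arrays close together between them. The difference in ovary lines was 2.64-fold. JUNB had 9.95 and 9.21 in ovary lines of round 2 and round 1, and 9.31 and 9.19 in stomach lines. For JUNB only the round 2 ovary array stood apart, by 0.64 above the next. JUND, which is expressed more evenly across cell states than the other Jun genes, had 9.47 and 9.09 in ovary lines and 9.04 and 9.21 in stomach lines.

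FOS, the Fos subunit with the most transient transcript, had a different shape, which ZFP36 shared at a smaller size. It stood at 9.67 and 8.94 in ovary lines of round 2 and round 1, and at 10.19 and 9.32 in stomach lines. Round 2 was higher at both sites, by 0.72 and 0.87, and in each round the ovary line was the lower of the pair. FOSB had 7.44 and 6.87 in ovary lines and 6.90 and 6.95 in stomach lines, so its 3 lower arrays lay within 0.1 of each other. FOSL2 had 9.99 and 9.61 in ovary lines and 9.84 and 9.72 in stomach lines. FOSL1, which follows sustained ERK activity, had 8.26 and 8.22 in ovary lines and 7.91 and 8.03 in stomach lines, with both ovary arrays above both stomach arrays and almost no round difference.

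The NR4A genes encode orphan nuclear receptors that are induced by cAMP, calcium and growth factors. NR4A1 stood at 9.28 and 8.10 in ovary lines of round 2 and round 1, and at 8.13 and 8.26 in stomach lines. Its round 2 ovary array was 1.02 above the next highest, the largest such gap of the members, while the other arrays lay close together. NR4A2 had 8.67 and 7.45 in ovary lines and 7.97 and 7.70 in stomach lines, a difference of 2.33-fold between the ovary rounds. NR4A3 was under the signal minimum on average, with 5.65 and 5.51 in ovary lines and 5.51 and 5.67 in stomach lines, so its order on the arrays has little meaning.

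Of the EGR zinc finger factors, EGR1, a direct target of serum response factor, stood at 11.09 and 10.72 in ovary lines of round 2 and round 1, and at 10.66 and 10.59 in stomach lines. Both ovary arrays were above both stomach arrays, and the 2 CArG boxes shown above therefore belong to a gene with a 1.29-fold round difference in ovary lines. EGR3, at 6.56 and 6.09 in ovary lines and 6.34 and 6.23 in stomach lines, was highest in the round 2 ovary line.

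Krüppel-like factors include the epithelial differentiation factor KLF4, the TGF-beta induced KLF10, and KLF2 and KLF6. KLF10 stood at 10.19 and 9.20 in ovary lines of round 2 and round 1, and at 9.65 and 9.67 in stomach lines. The stomach arrays were alike, and the ovary arrays lay on either side of them, 1.98-fold apart. KLF6 had 9.70 and 8.96 in ovary lines and 9.24 and 9.19 in stomach lines, with the ovary arrays again on either side of the stomach arrays. KLF4 had 10.02 and 9.51 in ovary lines and 9.47 and 9.37 in stomach lines, and KLF2 had 8.40 and 7.96, and 8.01 and 8.15. All 4 were highest in the round 2 ovary line.

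Among the feedback inhibitors, DUSP1, a nuclear phosphatase that switches off p38, JNK and ERK, had the largest round difference in ovary lines of the tested members. It stood at 10.45 in the round 2 ovary line and 8.94 in the round 1 ovary line, 2.84-fold apart, and at 9.48 and 9.40 in the stomach lines of round 2 and round 1. As with JUN, the stomach arrays were close together and lay between the ovary arrays. DUSP2, a related phosphatase best known from lymphocytes, went another way, with 7.48 and 7.41 in ovary lines and 6.92 and 7.65 in stomach lines. It was the only immediate early gene at least 1.5-fold lower in round 2 at either site. ZFP36, which binds AU-rich elements and speeds the decay of transcripts, had 9.23 and 8.98 in ovary lines and 9.26 and 9.06 in stomach lines, a like difference at each site. MCL1, a short-lived BCL2 family survival protein, had 10.51 and 10.10 in ovary lines and 10.35 and 10.15 in stomach lines, with both round 2 arrays above both round 1 arrays.

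The IER genes encode small nuclear or membrane-associated proteins of the early response. IER3 stood at 10.97 and 10.29 in ovary lines of round 2 and round 1, and at 10.48 and 10.24 in stomach lines; its other 2 probe sets, which hold equal values, gave an ovary difference of 0.64 against 0.67. IER2 had 8.65 and 8.04 in ovary lines and 8.0 and 8.07 in stomach lines, so the round 2 ovary array alone was high. IER5, which acts on HSF1, had 8.58 and 8.52 in ovary lines and 8.50 and 8.59 in stomach lines, all within 0.1.

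**Figure D1:**
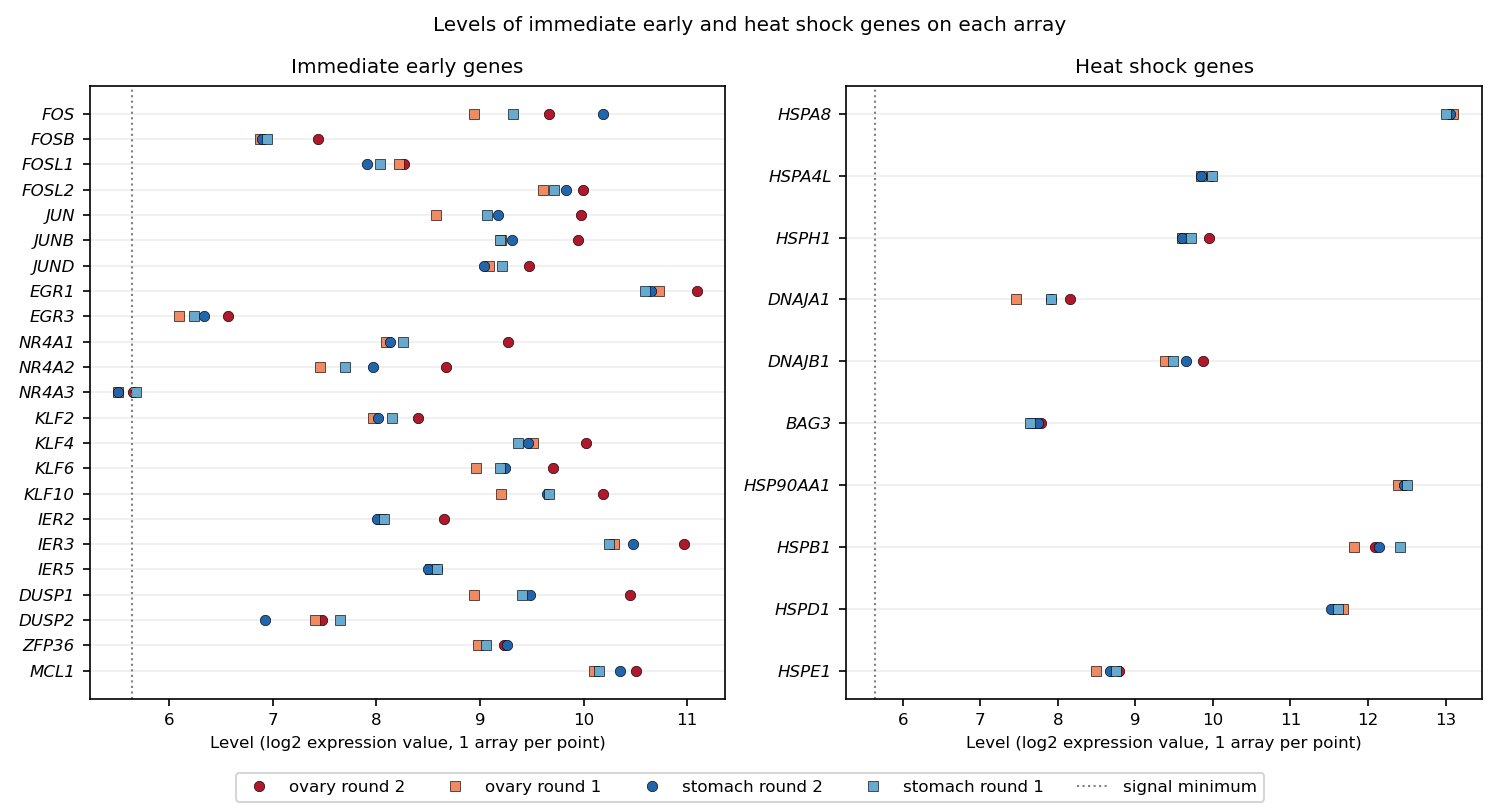
Level of each gene with a single-gene row, as the log2 expression value on each of the 4 arrays (1 point per array), immediate early genes on the left and heat shock genes on the right. The dotted line is the signal minimum of 5.64. The round 2 ovary array was the highest for 18 of the 22 tested immediate early genes and for 5 of the 10 heat shock genes. Of all genes tested, it was the highest for 25.1%.

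By array, the round 2 ovary line was the highest of the 4 for 18 of the 22 immediate early genes, beside 25.1% of all genes tested, the exceptions being FOS and ZFP36, highest in the round 2 stomach line (beside 20.2%), and IER5 and DUSP2, highest in the round 1 stomach line (beside 27.1%). The round 1 ovary line was the lowest for 13 of the 22, beside 26.4% of all genes. The round 2 ovary array was the lowest for 0 of the 22, beside 25.2%, and the round 1 ovary array the highest for 0, beside 27.6%. The plot of levels shows both features: a high point from the round 2 ovary line and, for 13 genes, a low point from the round 1 ovary line.

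The heat shock genes varied less, and by role. The Hsp40 co-chaperones, which deliver clients to Hsp70, included the tested member furthest apart between the ovary rounds. DNAJA1 stood at 8.16 and 7.46 in ovary lines of round 2 and round 1, and at 7.91 and 7.91 in stomach lines, so the round 1 ovary array alone was low. It was 1.63-fold apart in ovary lines, the one heat shock gene of the 10 past 1.5-fold, beside 2.41% of all genes. DNAJB1, a classical HSF1 target, had 9.88 and 9.39 in ovary lines and 9.66 and 9.49 in stomach lines, with both round 2 arrays above both round 1 arrays. BAG3, a nucleotide exchange factor that is also an HSF1 target, had 7.78 and 7.66 in ovary lines and 7.75 and 7.64 in stomach lines.

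The Hsp70 family held both the steadiest and one of the most variable signals. HSPA8, the constitutive Hsp70, stood at 13.06 and 13.10 in ovary lines of round 2 and round 1, and at 13.05 and 13.01 in stomach lines. Its 4 arrays lay within 0.1 of each other although its promoter window holds 2 heat shock elements. HSPH1, the Hsp110 exchange factor, had 9.95 and 9.60 in ovary lines and 9.60 and 9.71 in stomach lines, and HSPA4L, a relative of it, had 9.97 and 9.84, and 9.84 and 9.99.

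The 5 probe sets that name the inducible HSPA1A and HSPA1B together differed between rounds in ovary lines by 0.86 to 0.88, that is 1.81-fold to 1.85-fold. The probe set of highest mean, 8118310, had 10.72 and 9.86 in ovary lines of round 2 and round 1, and 10.50 and 10.60 in stomach lines. Here the round 1 ovary array was low and the other 3 were close together, as for DNAJA1. Within the stomach lines all 5 probe sets were lower in round 2, by 0.11 to 0.20. Of the 5, 2 hold equal values on every array, so they are not 5 separate measurements, and the gene of the pair that gave the signal cannot be told.

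**Figure D2:**
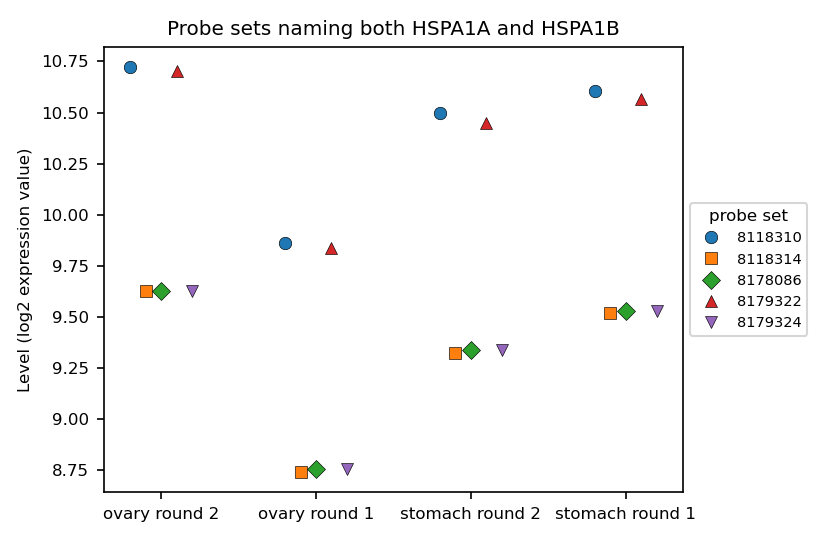
Level (log2 expression value) of the 5 probe sets that name both HSPA1A and HSPA1B, on the 4 arrays from the ovary lines on the left to the stomach lines on the right, 1 symbol per probe set. For each probe set the round 1 ovary array is the lowest; for 8118310 the round 2 ovary array is at 10.72 and the round 1 ovary array at 9.86.

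The abundant chaperones showed small differences. HSP90AA1, the inducible cytosolic Hsp90, had 12.47 and 12.38 in ovary lines of round 2 and round 1, and 12.46 and 12.51 in stomach lines. The mitochondrial chaperonin HSPD1 had 11.56 and 11.68 in ovary lines and 11.52 and 11.61 in stomach lines, with both round 2 arrays below both round 1 arrays, and its partner HSPE1 had 8.78 and 8.49, and 8.68 and 8.75. HSPB1, a small heat shock protein abundant in epithelial tumours, had 12.09 and 11.81 in ovary lines and 12.14 and 12.42 in stomach lines, so both ovary arrays were below both stomach arrays. HSPD1, HSP90AA1 and HSPA8 hold a heat shock element in the windows shown, as DNAJA1 does, and their ovary round differences were -0.12, 0.084 and -0.042, against 0.70 for DNAJA1.

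Over the 10 tested heat shock genes the median round difference was 0.20 in ovary lines, with 8 higher in round 2, and -0.061 in stomach lines, with 4 higher. For all genes these medians were -0.0021 and -0.017, with 47.0% and 44.1% higher. Across genes, which share the same 4 arrays and are not independent replicates, the ovary and stomach round differences correlated at r = 0.31 over 22 immediate early genes and at r = 0.16 over 10 heat shock genes. Over all 14547 genes tested the same correlation was higher, at r = 0.41.

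**Figure D3:**
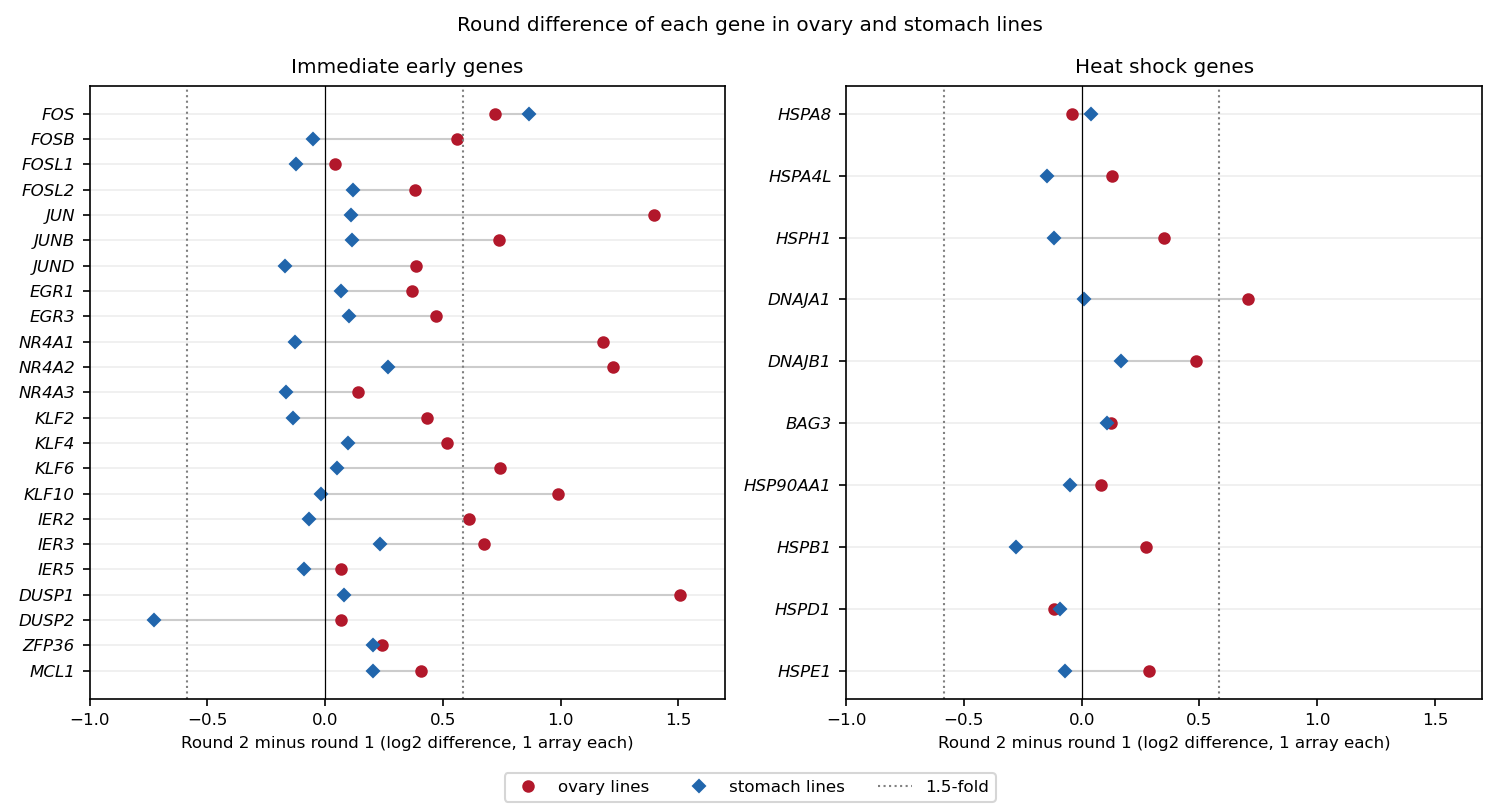
Round 2 minus round 1 (log2 difference of 1 array from another) for each gene in ovary lines (circles) and stomach lines (diamonds), immediate early genes on the left and heat shock genes on the right, with dotted lines at 1.5-fold. The immediate early genes reach 1.51 in ovary lines (DUSP1), while most stomach values lie close to 0, the exceptions being FOS at 0.87 and DUSP2 at -0.73.

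In the fit of all 4 arrays, limma called 0 of the 32 tested members between rounds, beside 0.0% of the 14547 genes, with Benjamini-Hochberg adjusted p under 0.05. FOS averaged 9.93 ± 0.37 in round 2 and 9.13 ± 0.27 in round 1 (SD, n = 2 each), a fitted difference of 0.80 ± 0.22 (SE; limma adjusted p = 0.287). DUSP1 differed by 0.79 ± 0.36 (limma adjusted p = 0.377), JUN by 0.75 ± 0.32 (0.357) and NR4A2 by 0.74 ± 0.26 (0.316). The large difference in ovary lines and the small one in stomach lines enter the error of JUN and DUSP1, whereas FOS differed alike at both sites. These sizes rest on single arrays: without the round 2 ovary array DUSP1 came to 0.31, JUN to 0.35, NR4A2 to 0.39, and NR4A1 (0.53 ± 0.39 with all arrays) to -0.046. Without the round 2 stomach array the same genes came to 1.28, 1.15, 1.10 and 1.10, and FOS to 0.53.

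Further fitted differences of at least 0.3 in size were those of KLF10 (0.49 ± 0.24), IER3 (0.45 ± 0.18), JUNB (0.43 ± 0.22), KLF6 (0.40 ± 0.18), KLF4 (0.31 ± 0.20), MCL1 (0.30 ± 0.087) and DUSP2 (-0.33 ± 0.21). Among heat shock genes they were those of DNAJA1 (0.36 ± 0.18) and DNAJB1 (0.33 ± 0.10). Limma adjusted p for these 9 lay between 0.287 (MCL1) and 0.492 (KLF4). Without the round 2 ovary array KLF4 came to 0.029, JUNB to 0.11, KLF6 to 0.16, and KLF10 and IER3 to 0.21 each. DUSP2 came to -0.053 without the round 2 stomach array, and DNAJA1 to 0.13 without the round 1 ovary array. An unadjusted p under 0.05 was found for 5 of the 22 immediate early genes (FOS, FOSL2, NR4A2, ZFP36 and MCL1) and 1 of the 10 heat shock genes (DNAJB1), all higher in round 2, beside 7.64% of all genes in that direction and 15.0% in either. Of the members 0 had one in the lower direction, beside 7.33%. With the site as a replicate block 0 members passed the adjusted threshold; unadjusted, 6 immediate early genes (FOS, JUNB, NR4A2, IER3, ZFP36 and MCL1) and 1 heat shock gene (DNAJB1) were under 0.05 and higher, beside 8.54%, and the smallest adjusted p was that of FOS (limma, 0.182).

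Both round 2 arrays lay above both round 1 arrays for 11 of the 22 immediate early genes and 3 of the 10 heat shock genes, beside 22.2% of all genes, and below them for 0 and 1, beside 26.8%. A positive fitted difference was found for 19 of the 22 and 6 of the 10, beside 45.4% of all genes. The median fitted difference was 0.30 for immediate early and 0.063 for heat shock genes, against -0.019 for all genes. Without the round 2 ovary array the immediate early median was 0.14, and without the round 2 stomach array it was 0.53. Without the round 1 ovary, round 2 ovary and round 1 stomach arrays in turn, the heat shock median was 0.012, 0.018 and 0.14.

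The interaction of site and round asked whether the round difference itself differed between the lineages. It was larger in ovary than in stomach lines for 21 of the 22 immediate early genes, FOS being the exception, and for 8 of the 10 heat shock genes, beside 54.7% of all genes. Higher in round 2 in ovary lines and lower in stomach lines were 9 of the 22 and 5 of the 10, beside 17.2%. The 5 largest were DUSP1 (1.43 ± 0.80), NR4A1 (1.31 ± 0.69), JUN (1.29 ± 0.74), KLF10 (1.01 ± 0.49) and NR4A2 (0.96 ± 0.75), each with a limma adjusted p of 1.0. Limma called 0 of the 32 members and 0.0% of all genes, and 0 members had an unadjusted p under 0.05, beside 1.33% of all genes (0.577% higher and 0.756% lower). With the round as a replicate block, 0 members passed the adjusted threshold, while for 8 the unadjusted p was under 0.05 (JUN, NR4A2, KLF2, KLF6, KLF10, DUSP1, DUSP2 and DNAJA1), beside 3.07% of all genes. With 1 array for each site and round, no array can be left out of this comparison.

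With the round 2 arrays exchanged, the ovary lines would have an immediate early median of 0.14 and the stomach lines one of 0.50, and the 5 interaction values would lie between -0.98 and -0.075. The fitted round difference uses both round 2 arrays alike and is the same either way.

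The comparison of sites asked what differed between lines from ovarian metastases and lines from stomach tumours. In round 2, 20 of 22 immediate early genes were higher in the ovary line, beside 51.9% of all genes, with a median of 0.48. In round 1, 5 of 22 were higher in the ovary line, beside 46.2%, with a median of -0.12. These within-round differences share their arrays with the round differences above and are another view of the same 4 values. In round 2, 6 of the 22 were at least 1.5-fold higher in the ovary line (JUN, JUNB, NR4A1, NR4A2, IER2 and DUSP1), beside 0.804% of all genes, and 0 were that much lower, beside 0.419%. In round 1, 0 were higher by that fold, beside 0.914%. NR4A1 was furthest apart, 2.21-fold. Heat shock genes had medians of 0.073 in round 2 and -0.12 in round 1. Of the 10, 9 were higher in the ovary line in round 2 and 3 in round 1, beside 51.9% and 46.2% of all genes. In round 1 HSPB1 was the 1 tested heat shock gene at least 1.5-fold lower in the ovary line, beside 1.11% of all genes. The 5 probe sets of HSPA1A and HSPA1B, which were not tested, were lower there as well, with -0.74 for 8118310. With the round 2 arrays exchanged, the round 2 median of immediate early genes would be -0.48 and 0 would be 1.5-fold higher.

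Averaged over rounds, 20 of the 22 immediate early genes were higher in ovary, beside 50.6% of all genes, with a median of 0.16, and 5 of the 10 heat shock genes, with a median of 0.0092. The direction of the immediate early median rests on 1 array: it was -0.11 without the round 2 ovary array and 0.48 without the round 1 ovary array. With the round 2 arrays exchanged it would be -0.28, and that of heat shock genes -0.15. Limma called 0 members and 0.0% of all genes. The members furthest apart were NR4A1 at 8.69 ± 0.83 in ovary and 8.20 ± 0.091 in stomach (SD, n = 2 each), KLF4 at 9.77 ± 0.37 and 9.42 ± 0.070, JUNB at 9.58 ± 0.52 and 9.25 ± 0.081, and IER2 at 8.35 ± 0.43 and 8.04 ± 0.049. FOS, at 9.31 ± 0.51 in ovary and 9.75 ± 0.61 in stomach, and HSPB1, at 11.95 ± 0.19 and 12.28 ± 0.20, went the other way. Fitted differences were 0.49 ± 0.40 for NR4A1, 0.35 ± 0.19 for KLF4, 0.33 ± 0.26 for JUNB, 0.31 ± 0.22 for IER2, -0.45 ± 0.38 for FOS and -0.33 ± 0.15 for HSPB1, each with a limma adjusted p of 1.0. Without the round 2 ovary array NR4A1 came to -0.10, JUNB to -0.041, IER2 to 0.0032 and KLF4 to 0.089. FOS came to -0.015 without the round 2 stomach array, and HSPB1 to -0.19 without either round 1 array. With the round 2 arrays exchanged NR4A1 would be at -0.65, FOS at 0.073 and HSPB1 at -0.28. In that fit 1 member had an unadjusted p under 0.05 (FOSL1, limma unadjusted p = 0.040, higher), beside 2.6% of all genes, or 1.58% in that direction. With the round as a replicate block there were 4 (FOS lower, and FOSL1, EGR1 and KLF4 higher), beside 6.3% in either direction and 3.31% higher, and 0 were called.

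Other genes of the same response were read in the same way. Their lists were chosen by name with earlier results of these data known, so they are not an independent check. Of 36 tested further immediate early genes, 28 were higher in round 2 in ovary lines (median 0.31), beside 47.0% of all genes. At least 1.5-fold higher there were 12 of the 36, beside 2.41%. In stomach lines 18 were higher (median 0.0034), beside 44.1%, and none by 1.5-fold, beside 1.23%. PLK2, a stress-induced kinase, had the largest difference, at 7.79 and 5.07 in ovary lines of round 2 and round 1, and 6.20 and 6.0 in stomach lines. Its round 1 ovary value lay under the signal minimum, so that difference of 2.72 starts near the floor of the array. The small GTPase RHOB had 10.48 and 9.23 in ovary lines and 9.61 and 9.72 in stomach lines. The matricellular CCN2 differed by 1.10 in ovary and 0.047 in stomach lines, and tissue factor, F3, by 1.02 and 0.37.

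The ERK feedback list holds genes induced by the ERK pathway, not all of which restrain it, and it includes IER3. Of 15, 10 were higher in round 2 in ovary lines (median 0.18) and 12 in stomach lines (median 0.17). Over all genes, 47.0% and 44.1% were higher. The EGF receptor ligand HBEGF differed by 1.37 in ovary and 0.31 in stomach lines, IER3 by 0.67 and 0.23, the phosphatase DUSP4 by 0.65 and -0.093, and the receptor EPHA2 by 0.56 and 0.41. Of 16 tested kinases and factors upstream, none was 1.5-fold higher at either site, beside 2.41% and 1.23% of all genes. Of these 16, 12 were higher in round 2 in ovary lines and 10 in stomach lines, beside 47.0% and 44.1% of all genes. Their medians were 0.067 and 0.062. The ERK kinase MAP2K1 differed by 0.47 in ovary and 0.17 in stomach lines, the ternary complex factor ELK3 by 0.39 and 0.19, the serum response factor SRF by 0.29 and -0.058, and CREB3 by -0.20 and 0.15.

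Further HSF1 targets and cytosolic co-chaperones had medians near those of all genes. Of 28 tested, 15 were higher in round 2 in ovary lines (median 0.029) and 13 in stomach lines (median -0.030). Over all genes, 47.0% and 44.1% were higher. HSPA2, another Hsp70, was the one of the 28 at least 1.5-fold higher in ovary lines, beside 2.41% of all genes. It stood at 10.38 and 9.50 in ovary lines of round 2 and round 1, and at 10.11 and 10.09 in stomach lines. It had the shape of DNAJA1 and of the HSPA1A and HSPA1B probe sets, with the round 1 ovary array low. Limma called 0 genes of these 4 lists between rounds, with an unadjusted p under 0.05 for 7 higher and 1 lower of the further immediate early genes, 5 higher and 0 lower of the ERK feedback genes, 3 higher and 0 lower upstream, and 1 in each direction of the HSF1 targets. Over all genes these shares were 7.64% higher and 7.33% lower.

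Markers of the line moved with these genes in ovary lines. Of the 9 epithelial markers, 8 were higher in round 2 in ovary lines (median 0.33) and 6 in stomach lines (median 0.081). Over all genes, 47.0% and 44.1% were higher. In round 1, where 46.2% of all genes were higher in the ovary line, that line was lower for 8 of the 9 markers. Their summed linear signal was 45370 and 38800 units in ovary lines of round 2 and round 1, and 46090 and 44240 in stomach lines. CEACAM5, an intestinal adhesion glycoprotein, was the marker furthest apart, with 11.30 and 9.70 in ovary lines and 11.34 and 10.95 in stomach lines. The round 1 ovary array was the lowest for these markers except CD44, which was highest there at 13.41. In round 1, ovary minus stomach was -1.25 for CEACAM5 and -0.60 for CEACAM6, but -0.035 for CDH1 and -0.041 for FGFR2. DNAJA1 was also lowest on the round 1 ovary array, and the part of that array in the results above was not tested.

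**Figure D4:**
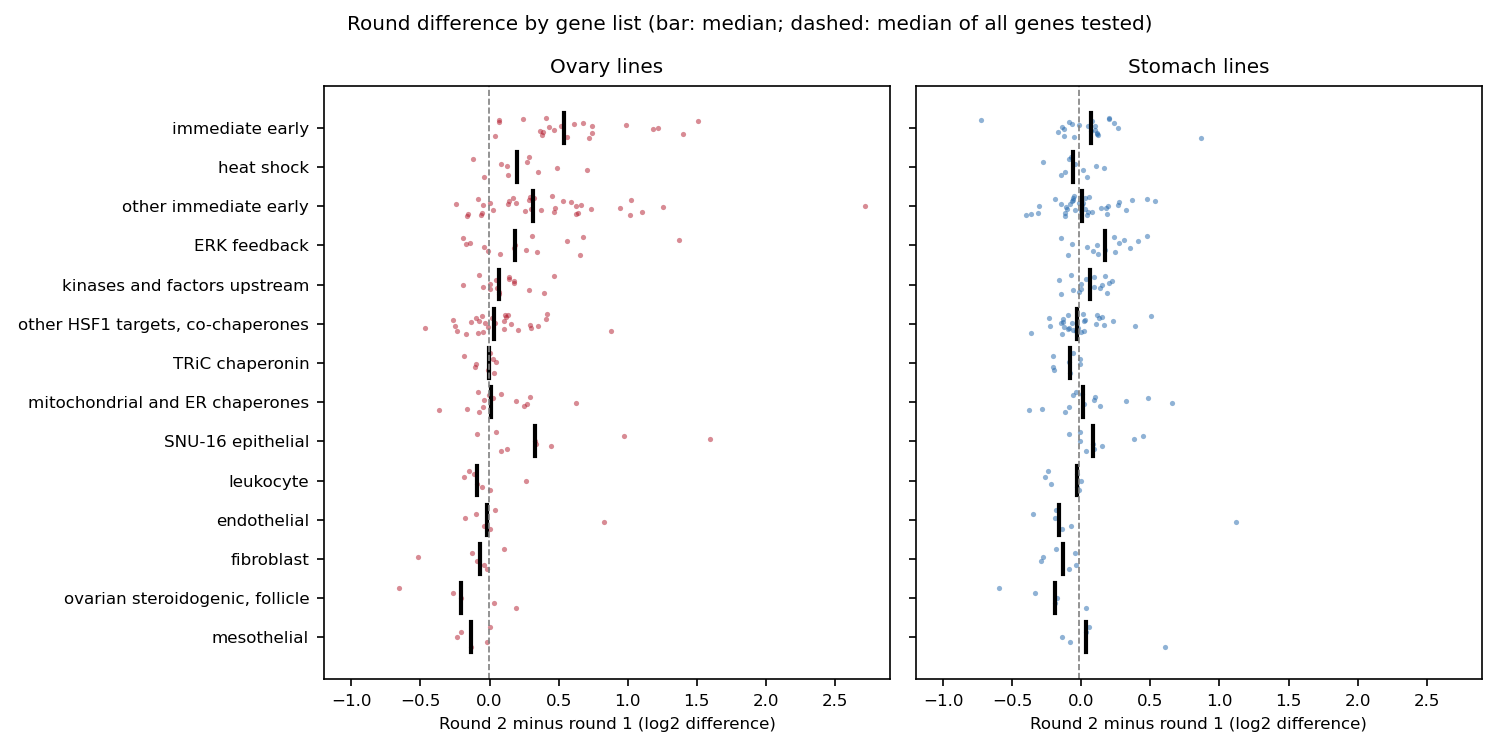
Round 2 minus round 1 (log2 difference) for the tested genes of each list (points) with the list median (bar), in ovary lines on the left and stomach lines on the right; the dashed line is the median of all genes tested. In ovary lines the immediate early list has the highest median of the lists, 0.54, and in stomach lines its median is 0.073.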

How the data were processed

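Per the labels' protocols, biotin-labelled RNA was read on Affymetrix arrays. The authors' deposited values are on the log2 scale, in a table with a column for each array. The submitters' processing notes list Affymetrix Expression Console without a version. Normalization between arrays was not given in the sources used here, and scaling between arrays would hide a shift common to most transcripts. Values ran from 2.25 to 14.24, which is how the log2 scale was read.

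Rows were named through GEO's platform annotation: 19460 of 33297 rows carry 1 symbol, 1754 several and 12083 are unnamed here. Symbols were updated through a RefSeq gene table (GRCh38.p14), which held 19429 of them. The probe set of highest mean was taken per gene. Genes whose mean exceeded 5.64, the 30th percentile over rows, were tested with limma 3.58.1 in R 4.3.3 (lmFit, eBayes, two-sided, Benjamini-Hochberg over 14547 genes) for ovary minus stomach, round 2 minus round 1 and their interaction. The first 2 fits leave the other factor in the residual, and the interaction fit leaves both. The members and lists were chosen with earlier results of these data known. All members are named; of the other lists, up to 4 genes with the largest difference in ovary lines. Fitted values are given for members from 0.3 in size, and for the 5 largest interactions. These limits of size were set after the values were seen.

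The round number is shared by both sites and, per the labels, marks the implantation. Deviations from site means correlated at 0.41 between arrays of the same round (2 sites), so blocked values are given where a count moved. The number of arrays limits the precision. The limma fit of the round difference was run on simulated data with the same shift at both sites, and its outcome is not given here. The site and interaction fits were not run on simulated data. Promoter sequences are RefSeq's. Figures used matplotlib 3.10.9.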

Additional observations from a re-analysis of the deposited data

Results flagged for a closer look

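For 4 tested genes and the HSPA1A and HSPA1B probe sets, the round difference had opposite signs in ovary and stomach lines, with at least 1 of the differences past 1.5-fold. NR4A1 differed by 1.18 in ovary lines and -0.13 in stomach lines. KLF10 differed by 0.99 and -0.018, and IER2 by 0.61 and -0.069. DUSP2 differed by 0.066 in ovary lines and -0.73 in stomach lines. Probe set 8118310, which names HSPA1A and HSPA1B, differed by 0.86 and -0.11, and the difference between the lineages was not tested for it. For the 4 genes, limma's interaction fit gave an adjusted p of 1.0 each. Opposite signs of this kind, at any size, were found in 17.2% of all genes in the direction of higher in round 2 in ovary lines and lower in stomach lines. That share is for a wider rule than the one used here. The share of all genes that also pass the 1.5-fold limit is not given, so these genes have no like background.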

How the results depend on the processing

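The number of members and of genes called by limma was 0 in each of the 3 comparisons under each alternative listed here. These were the signal minimum, scaling, probe set choice, variance prior, threshold of 0.10, replicate block and exchanged round 2 arrays. For the interaction no value with an array left out is given, since 3 arrays hold no interaction. Medians with the replicate block equal those without it by design, since site and round are balanced over the 4 arrays (0.30 and 0.063 between rounds, 0.16 and 0.0092 between sites). With the round 2 samples exchanged, the immediate early medians came to -0.28 (site), 0.14 (ovary rounds), 0.50 (stomach rounds) and -0.48 (sites in round 2), and the heat shock medians to -0.15 (site) and -0.073 (sites in round 2). The counts at least 1.5-fold higher then were 2 immediate early and 0 heat shock genes in ovary lines, 7 immediate early in stomach lines and 0 between sites in round 2. Under that exchange the site differences of FOS, JUNB, NR4A1, KLF4 and IER2 were 0.073, -0.31, -0.65, -0.21 and -0.34, while HSPB1 kept its sign at -0.28. The interactions of DUSP1, NR4A1, JUN, KLF10 and NR4A2 were -0.50, -0.98, -0.31, -0.075 and -0.46. At 2-fold, the ovary rounds had 4 higher immediate early genes and 0 heat shock genes (0.701% of all genes), 0 immediate early genes in stomach rounds (0.158%) and 1 between sites in round 2 (0.172%). At a log2 difference of 0.32, the ovary rounds had 18 higher immediate early genes and 3 heat shock genes (9.21% of all genes), and 16 and 1 between sites in round 2 (4.61%). Leaving out each array in turn gave -0.041 to 0.70 for JUNB and -0.10 to 1.08 for NR4A1 between sites, and -0.046 to 1.10 for NR4A1 between rounds. With 1 array per line, 4 arrays in all and 1 lineage per site, no comparison here has independent replicates of a lineage.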

Other observations

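Mitochondrial and endoplasmic reticulum chaperones had a list median of 0.010 in ovary and 0.012 in stomach lines, against -0.0021 and -0.017 for all genes. The list pools genes of opposite direction. Higher in round 2 at both sites were HSPA5, HSP90B1, DNAJB9, DNAJB11, HYOU1, PDIA4 and CALR, of the endoplasmic reticulum. Lower at both were the mitochondrial HSPA9, TRAP1, GRPEL1 and DNAJA3, and PDIA6 and SDF2L1 of the endoplasmic reticulum. Of 14 mitochondrial and endoplasmic reticulum chaperones, 7 were higher in round 2 in ovary lines and 8 in stomach lines. Over all genes, 47.0% and 44.1% were higher. Of these 14 chaperones, DNAJB9 and TRAP1 were furthest apart in ovary lines. DNAJB9, an endoplasmic reticulum Hsp40, stood at 7.83 and 7.21 in ovary lines of round 2 and round 1, and at 7.63 and 6.97 in stomach lines. TRAP1, the mitochondrial Hsp90, had 11.31 and 11.67 in ovary lines and 11.13 and 11.52 in stomach lines. Limma's adjusted p between rounds was 0.287 for each. Of the 8 subunits of the cytosolic chaperonin TRiC, 3 were higher in round 2 in ovary lines and 0 in stomach lines. The shares of all genes were 47.0% and 44.1%. The TRiC medians were -0.0055 and -0.085, against -0.0021 and -0.017 for all genes. CCT7 differed by -0.19 and -0.20.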
